A study of Mus musculus with 2 samples.

Results

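Axon guidance ligands and receptors are the semaphorins and plexins, the ephrins and Eph receptors, the Slits and Robos, and the netrins, netrin-Gs, Dcc and Unc5 receptors. They were taken here as the protein-coding genes of the GENCODE M21 annotation whose symbols carry one of these family names, which gave 70 genes of 22015 nuclear protein-coding genes. Of these, 37 were ligands and 33 receptors by family. Unc5cl matched by its symbol alone, since it encodes an UNC5C-like protein and not a netrin receptor. Total RNA from left cerebral cortex was sequenced in 2 libraries of a single group: male B6CASTF1/J mice, the F1 of a B6 and a CAST parent, aged 18 to 20 months and untreated as far as the labels say. The libraries are biological replicates 1 and 2 in the labels, which give them separate biosamples but 1 donor identifier, so whether they came from separate animals is not known and their spread may be technical. There was no second condition, and levels and replicate differences are therefore described without a p-value.

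Guidance ligands are secreted or held on a cell surface, and a growing axon turns toward or away from a cell that carries them according to the receptors it has. Semaphorins signal through plexins, class 3 semaphorins mostly with a neuropilin as co-receptor, and ephrins signal through Eph receptor tyrosine kinases in contacts between cells, in both directions. Slits act on Robo receptors, and netrin-1 attracts through Dcc and repels when an Unc5 receptor takes part. In the adult cortex the same genes are known from synapses, glia and blood vessels.

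Levels are deposited TPM, a transcript abundance per length, which allows genes to be set side by side. Each pair of values below is replicate 1 then replicate 2, and ± is the SD over the 2 libraries. Detection was set at 1 TPM in each library. By this measure 66 of the 70 genes were detected (94.3%), where 58.5% of all nuclear protein-coding genes were. The median level over the 70 genes was 11.6 TPM, against 3.74 TPM over all nuclear protein-coding genes. Among detected genes alone it was 13.6 TPM, against 16.2 TPM. Guidance genes were thus mostly present, at moderate levels. Together they held 0.292% and 0.269% of the TPM of nuclear protein-coding genes. Ligands summed to 584 and 528 TPM and receptors to 773 and 668 TPM. In these bulk samples fewer cells of a type and less RNA per cell cannot be told apart.

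**Figure D1:**
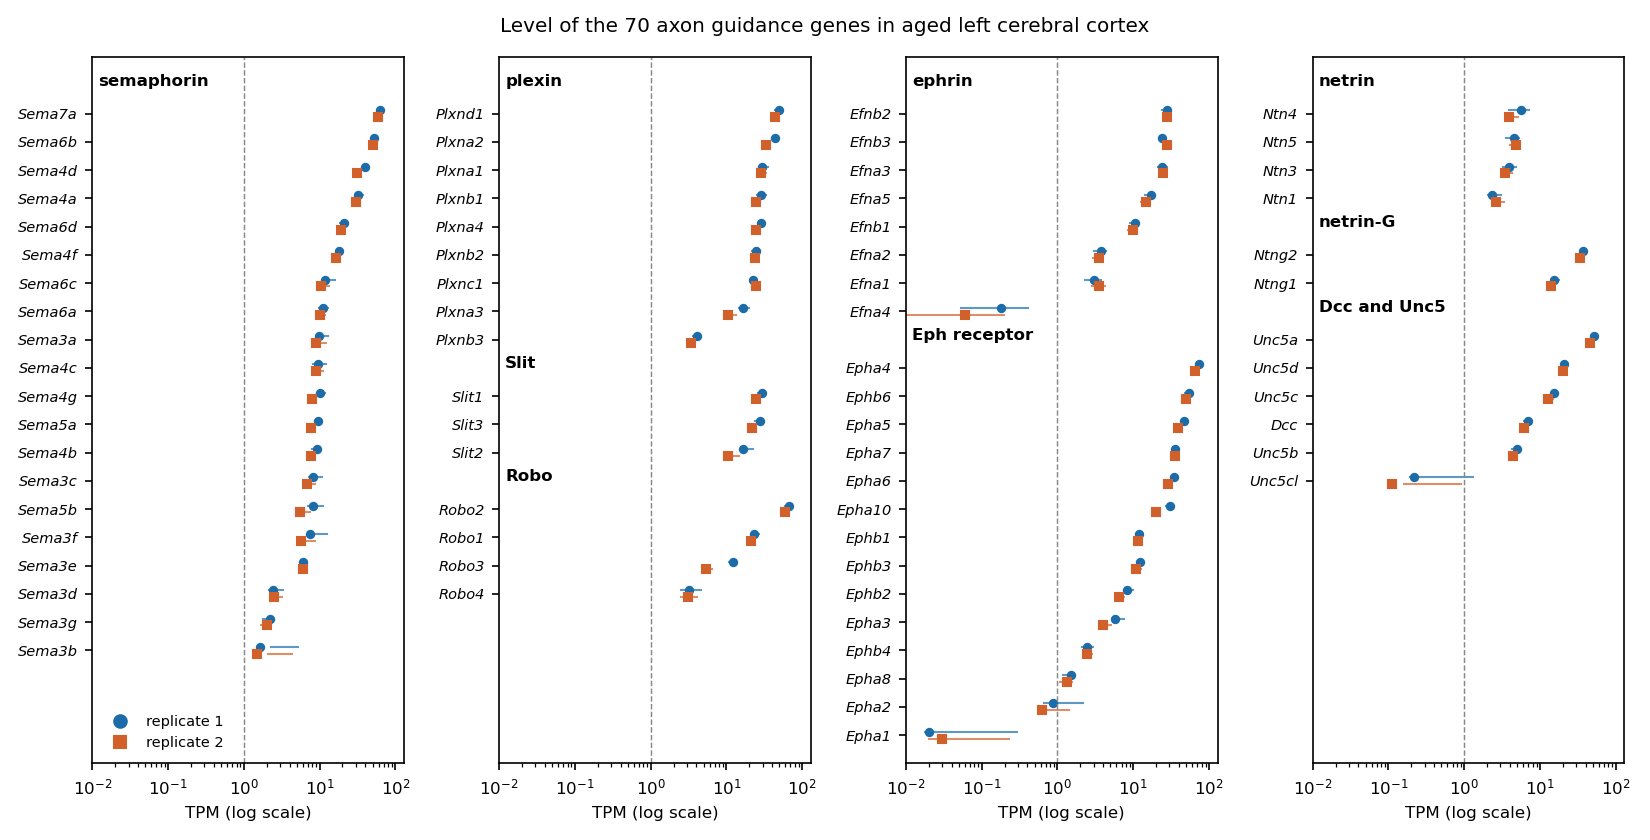
TPM on a log axis for each of the 70 genes, by family and in order of mean level; circles are replicate 1, squares replicate 2, thin lines the deposited credibility interval of each value, and the dashed line is 1 TPM. Epha4, Robo2 and Sema7a lie farthest to the right, and Efna4, Epha1, Epha2 and Unc5cl lie left of the dashed line.

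The expected counts of annotated genes came to 22827984 for replicate 1 and 29897486 for replicate 2. The lists of neuron, excitatory, inhibitory, upper layer and deep layer markers were detected in full. The striatum, thalamus and glial lists were too, so full detection does not tell cortex from other brain regions. A list of 10 striatum markers was higher in replicate 2 for all 10, with a median log2 ratio of 1.11 and summed levels of 222 and 438 TPM; Drd1, the D1 dopamine receptor, stood at 8.68 and 22.4 TPM. Oligodendrocyte markers were higher in replicate 2 for 7 of 9, with a median of 0.20, and endothelial markers for 2 of 8, with 2 lower and a median of -0.04. The striatum and oligodendrocyte lists were chosen with earlier results of these data known, so their counts are not independent of that choice. Neuron markers were higher for 5 of 6 with a median of 0.08, and inhibitory for 4 of 6 with 0.15. Deep layer markers were higher for 4 of 6 with 0.23, and microglia for 3 of 4 with 0.19. The striatum, oligodendrocyte, neuron, inhibitory, deep layer and microglia lists had no lower gene. Excitatory markers had 2 higher and 2 lower of 5, upper layer 2 and 1 of 4, and astrocyte 2 and 1 of 6. Of all nuclear protein-coding genes compared in this way, 28.4% were higher and 14.2% lower, with a median of 0.05. The terms higher and lower are those defined for the replicate ratios below. No marker of any list was at 0 in both libraries. The part of these differences in the replicate ratios given below was not tested.

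Semaphorins, the largest ligand family here with 20 genes, were all detected and summed to 333 and 297 TPM. Sema7a, which is anchored in the membrane by a lipid and binds plexin C1 and integrins, led with 63.2 and 58.0 TPM (60.6 ± 3.66, ENSMUSG00000038264.8, chr9:57940112-57962865, plus strand, GRCm38). Sema6b, a transmembrane ligand of A plexins, followed with 51.8 and 50.3 TPM. Their intervals did not overlap in either library, so Sema7a stood above Sema6b. In replicate 1 each interval ended below the gene's own TPM, at 63.16 TPM for Sema7a and 51.49 TPM for Sema6b. Sema4d, a ligand of plexin B1, had 39.4 and 30.7 TPM, and Sema4a had 32.4 and 30.3 TPM; the intervals of this pair overlapped. Sema6d at 20.8 and 19.2 TPM and Sema4f at 18.1 and 16.3 TPM came next. Below them 11 genes, Sema6c, Sema6a, Sema3a, Sema4c, Sema4g, Sema5a, Sema4b, Sema3c, Sema5b, Sema3f and Sema3e, formed a run of means between 11.1 and 6.01 TPM in which no neighbour stood apart from the next. The secreted class 3 ligands were all in or below this run: Sema3a, the best known repellent of the class, had 9.93 and 8.83 TPM, and Sema3d, Sema3g and Sema3b had means of 2.47, 2.11 and 1.56 TPM. The Sema3b level is uncertain, since its deposited intervals, 2.27 to 5.13 and 2.06 to 4.29 TPM, lay wholly above its TPM of 1.63 and 1.49. In 7 of the 70 genes the interval left out the TPM in at least 1 library, among them Sema7a, Sema6b and, in both libraries, Sema3f.

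All 9 plexins, the semaphorin receptors, were detected, with 249 and 217 TPM in sum. Plxnd1, the receptor of Sema3e, led with 50.1 and 44.1 TPM (47.1 ± 4.21), above Plxna2 with 43.1 and 33.0 TPM. In the second quantification Plxna2 was above in replicate 1 and just below in replicate 2, with 58.1 and 55.0 TPM for Plxnd1 and 69.8 and 53.5 TPM for Plxna2. Plxna1, Plxnb1, Plxna4, Plxnb2 and Plxnc1 followed between 29.3 and 23.3 TPM on average, with no neighbour apart. In the first quantification most plexins therefore lay within a narrow band. In the second these same genes were spread more widely, from Plxnb1 with 52.9 and 43.6 TPM to Plxnb2 with 26.4 and 24.8 TPM. Plxna3 had 16.6 and 10.6 TPM and Plxnb3 had 4.03 and 3.42 TPM, each apart from the gene above it. Plxnb2 was the one detected gene whose level differed by over 1.5-fold between the deposited quantifications: after rescaling both to protein-coding TPM, the second gave 0.64 of the first.

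The co-receptors that class 3 semaphorins use were present at similar levels. Nrp1 had 15.3 and 12.5 TPM, and Nrp2 had 11.97 and 12.7 TPM. Of 17 semaphorin and plexin effectors, which pass the signal to the cytoskeleton, all were detected; the highest were Dpysl2 with 312 and 304 TPM, Mical2 with 271 and 216 TPM and Crmp1 with 81.8 and 70.6 TPM.

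Among the 8 ephrins, which summed to 110 and 113 TPM, the levels of the first 3 could not be ordered. Efnb2 and Efnb3 span the membrane and signal back into their own cell; Efnb2 had 27.5 and 27.6 TPM and Efnb3 had 23.98 and 28.2 TPM. Efna3, which is lipid anchored like all ephrin-As, had 24.1 and 25.1 TPM. Efna5 stood below these at 17.2 and 14.7 TPM, then Efnb1 at 10.5 and 9.86 TPM. Efna2 and Efna1 had means of 3.68 and 3.29 TPM. Efna4 was the one ephrin not detected, with 4 and 2 counts, although it lies 10.4 kb from Efna3 on chromosome 3 and in a cluster with Efna1.

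In Efna3 and Efna5 the fourth of 5 coding exons, between the receptor-binding domain and the signal for the membrane anchor, is in some transcripts and missing from others without a change of frame. The exons are shown because both forms were present in both libraries. Capitals mark the exon, and the 12 bases of coding sequence on either side are in lower case, from the GENCODE M21 transcripts on GRCm38.
Efna3, chr3:89315808-89315885, minus strand, 78 bases: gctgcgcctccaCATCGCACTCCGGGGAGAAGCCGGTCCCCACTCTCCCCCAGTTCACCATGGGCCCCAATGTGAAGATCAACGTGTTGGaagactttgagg
Efna5, chr17:62613316-62613396, minus strand, 81 bases: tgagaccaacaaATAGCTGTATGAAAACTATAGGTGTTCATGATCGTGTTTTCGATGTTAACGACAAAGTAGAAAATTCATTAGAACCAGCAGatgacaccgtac
Aligned, the exons were identical in 38 of 87 columns (43.7%), and 15 columns were gaps. Whether this exceeds the identity of unrelated exons was not tested. The longer form of Efna3 held 70.8% and 84.8% of the TPM of its complete coding transcripts in the first quantification and 63.6% and 77.0% in the second. That of Efna5 held 68.4% and 73.4% in the first and 80.3% and 81.4% in the second. In each gene the form with the exon was thus the larger in both libraries and both quantifications.

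Eph receptors, with 14 genes, summed to 319 and 274 TPM, and 12 were detected. Epha4, which binds ephrins of both classes, had the highest level of all 70 genes in the first quantification, 74.7 and 65.0 TPM (69.8 ± 6.85, ENSMUSG00000026235.14, chr1:77367185-77515088, minus strand). Ephb6, whose kinase is inactive, followed with 53.8 and 49.6 TPM, and Epha5 with 47.2 and 38.4 TPM; each stood apart from the gene before it. In the second quantification Epha4 and Ephb6 were level, with 108 and 99.4 TPM for Epha4 and 114 and 97.0 TPM for Ephb6. Epha7, Epha6 and Epha10 came next with means of 35.5, 31.6 and 25.2 TPM, and no neighbour among Epha5 and these was apart. Epha10 also lacks kinase activity, so catalytically inactive members were among the first 6 of the family. Ephb1 and Ephb3 had 11.7 and 11.6 TPM on average and could not be ordered. Ephb2 with 8.32 and 6.40 TPM, Epha3 with 5.67 and 4.01 TPM, Ephb4 with 2.45 and 2.48 TPM and Epha8 with 1.5 and 1.34 TPM ended the detected part. Epha2, known from epithelia, had 0.87 and 0.63 TPM, and Epha1 had 1 and 2 counts, too few to give it a level. Of 15 effectors of ephrins and Eph receptors, all were detected, and the highest were Chn1 with 671 and 657 TPM, Kalrn with 253 and 193 TPM and Ngef with 156 and 161 TPM.

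Epha7 is known in the mouse for shorter forms that cross the membrane but stop before the kinase, and in these libraries the shorter forms were the more abundant. Its transcripts share their coding sequence up to position 28943378 of chromosome 4 (plus strand) and then go on into different exons. The junctions are shown because they decide whether the receptor has a kinase; the shared end is in lower case, and capitals mark the next 32 coding bases of each form.
Epha7-202, 610 codons, chr4:28946219-28946250: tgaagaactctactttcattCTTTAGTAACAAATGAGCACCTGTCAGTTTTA
Epha7-204, 626 codons, chr4:28966523-28966554: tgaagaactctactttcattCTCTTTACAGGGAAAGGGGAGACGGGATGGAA
Epha7-201, 998 codons, chr4:28947528-28947559: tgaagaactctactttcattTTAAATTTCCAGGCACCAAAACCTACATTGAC
Epha7-202 had 12.7 and 13.95 TPM, Epha7-204 had 8.00 and 7.97 TPM and the full-length Epha7-201 had 8.17 and 7.12 TPM. The interval of Epha7-202, 10.2 to 14.2 and 11.7 to 15.3 TPM, did not overlap that of Epha7-201, 6.14 to 9.22 and 5.45 to 8.05 TPM, in either library. Together the 2 shorter forms held 67.2% and 71.1% of the TPM of the complete Epha7 forms (69.2% ± 2.80) in the first quantification, and 63.8% and 67.8% (65.8% ± 2.83) in the second. Summed without regard to form, Epha7 followed Epha5 in its family. In the first quantification the longer complete forms of Epha7 together had 10.1 and 8.89 TPM. Ephb2, summed over all its transcripts, had 8.32 and 6.4 TPM.

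**Figure D2:**
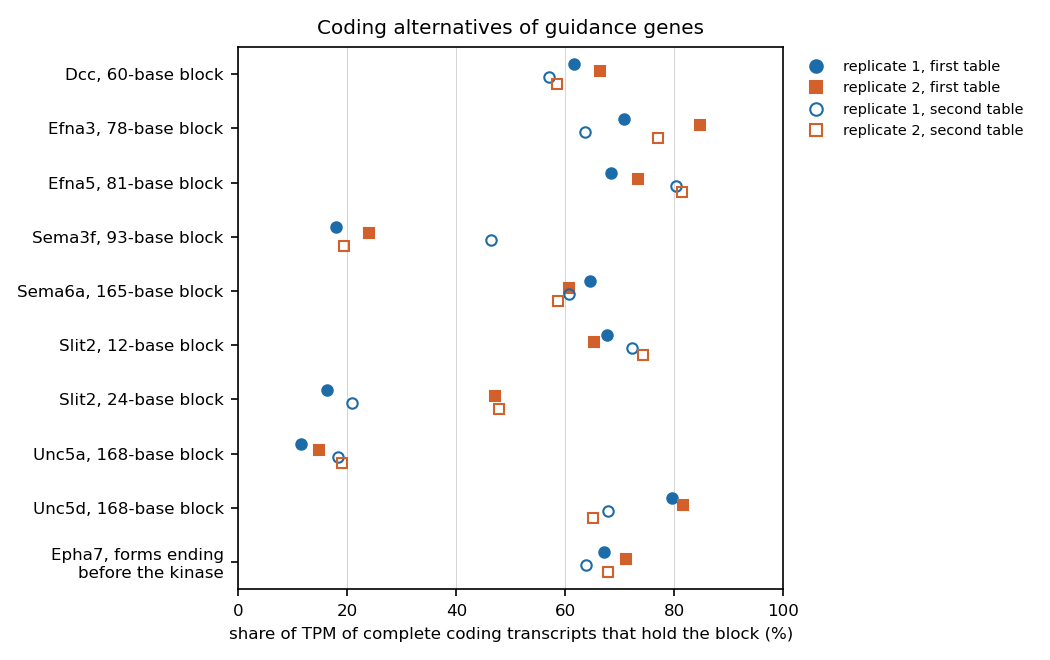
Share (%) of the TPM of complete coding transcripts that holds a given in-frame block, for 9 blocks of 8 guidance genes, with the share of Epha7 forms that stop before the kinase in the last row; circles are replicate 1, squares replicate 2, filled symbols the first quantification and open symbols the second. Unc5a lies at 11.5% to 19.0% and Unc5d at 65.1% to 81.6%, while the 24-base block of Slit2 lies at 16.3% and 20.8% in replicate 1 and at 47.1% and 47.8% in replicate 2.

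All 3 Slits, secreted ligands that are cut into diffusing fragments, were detected, with 73.2 and 56.5 TPM in sum. Slit1 had 29.1 and 24.4 TPM and Slit3 had 27.3 and 21.7 TPM, a pair that could not be ordered. Slit2 stood below both with 16.7 and 10.5 TPM, and its level is less certain, since its interval of 16.4 to 22.2 TPM began just under its TPM in replicate 1 and that of 11.2 to 14.6 TPM lay wholly above it in replicate 2. Slit2 also carries 2 short in-frame exons, shown because they change a few residues of a large ligand and were present in part of its transcripts; capitals mark each exon.
Slit2, ninth coding exon, chr5:48191003-48191014, plus strand, 12 bases: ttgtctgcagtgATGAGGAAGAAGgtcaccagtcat
Slit2, exon 16 of its coding exons, chr5:48220967-48220990, plus strand, 24 bases: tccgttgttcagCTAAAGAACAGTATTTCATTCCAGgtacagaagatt
The 12-base exon was in 67.7% and 65.3% of complete coding transcripts by TPM in the first quantification and in 72.2% and 74.3% in the second. The 24-base exon, which was singled out after its values were seen, was in 16.3% and 47.1% in the first and in 20.8% and 47.8% in the second. The replicates thus lay close together for the shorter exon and far apart for the longer. The longer rested mainly on Slit2-217 in replicate 1 and mainly on Slit2-202 in replicate 2. Slit2-217 held 9.81% and 4.21% of the gene's TPM in the first quantification. Slit2-202 had 0.01 and 3.44 TPM. Its intervals, 8.58e-05 to 3.74 and 0.656 to 4.14 TPM, overlapped, so the difference was not resolved.

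Robo receptors summed to 105 and 88.0 TPM over 4 genes, each apart from the next. Robo2, a Slit receptor, held 63.1% and 66.5% of the family with 66.5 and 58.5 TPM (62.5 ± 5.67, ENSMUSG00000052516.19, chr16:73891839-74411825, minus strand). Robo1, its neighbour at a distance of 846 kb and the other main Slit receptor, had 23.3 and 20.95 TPM. Robo3, which in the embryo lets commissural axons cross the midline, had 12.3 and 5.45 TPM, and Robo4, known from endothelium, had 3.24 and 3.10 TPM. The highest of the 9 Slit and Robo effectors were Srgap3 with 114 and 93.5 TPM, Enah with 77.3 and 66.5 TPM and Arhgap39 with 49.5 and 35.8 TPM, and all 9 were detected.

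Netrins were the family with the lowest sum, 16.3 and 14.7 TPM over 4 genes, and no neighbour in their order stood apart. Ntn4 had 5.62 and 3.84 TPM, Ntn5 had 4.50 and 4.76 TPM, Ntn3 had 3.85 and 3.48 TPM, and Ntn1, the ligand of Dcc, had 2.34 and 2.66 TPM. Ntn3 overlaps Tbc1d24 on the same strand, at 30.7 and 28.7 TPM, so its reads are uncertain. Netrin-Gs are a vertebrate branch that is lipid anchored, does not bind Dcc and acts at synapses. Ntng2 had 36.5 and 33.5 TPM, 2.38-fold above Ntng1 with 15.4 and 14 TPM by the mean of the log ratios. Their postsynaptic partners had nearly equal levels, Lrrc4, the partner of Ntng2, 48.8 and 46.6 TPM and Lrrc4c, the partner of Ntng1, 48.2 and 46.7 TPM. Ntng2 shares reads with 6530402F18Rik, a noncoding gene on its strand, and its level is uncertain by that amount. In both quantifications the leading Ntng2 transcript was Ntng2-211, annotated for nonsense-mediated decay, in replicate 1 and the coding Ntng2-204 in replicate 2. In the first quantification Ntng2-211 had 14.98 and 12.7 TPM and Ntng2-204 had 13.8 and 16.8 TPM.

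Netrin receptors of the Dcc and Unc5 family summed to 100.3 and 89.5 TPM, and every detected gene stood apart from the next. Unc5a led with 52.1 and 45.9 TPM (49.0 ± 4.36, ENSMUSG00000025876.15, chr13:54949411-55006018, plus strand), 51.9% and 51.3% of the family. Unc5d had 20.95 and 19.96 TPM, Unc5c 15.2 and 12.9 TPM, Dcc 6.93 and 6.22 TPM and Unc5b, known from endothelium, 4.95 and 4.44 TPM. Receptors of the Unc5 type, which mediate repulsion, were therefore mostly above Dcc. Unc5cl had 2 and 4 counts. Neo1, a Dcc-like receptor of netrins and repulsive guidance molecules that is no member of the list, had 32.1 and 30.2 TPM. Of 10 netrin and Dcc effectors all were detected, the highest being Trim9 with 210 and 166 TPM, Pak1 with 190 and 182 TPM and Rac1 with 153 and 164 TPM.

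Unc5a and Unc5d each have a 168-base coding exon, the sixth of the coding exons, that encodes a thrombospondin type 1 repeat of the extracellular part. The exons are shown because the 2 receptors used them in opposite proportions; Unc5d was added for this comparison after its values were seen. Capitals mark the exon.
Unc5a, chr13:54997193-54997360, plus strand: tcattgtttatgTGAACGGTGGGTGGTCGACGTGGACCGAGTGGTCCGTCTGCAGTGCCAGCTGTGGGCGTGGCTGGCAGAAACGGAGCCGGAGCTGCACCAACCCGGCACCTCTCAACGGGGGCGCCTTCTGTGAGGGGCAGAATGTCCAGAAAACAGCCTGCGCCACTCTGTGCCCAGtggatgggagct
Unc5d, chr8:28760725-28760892, minus strand: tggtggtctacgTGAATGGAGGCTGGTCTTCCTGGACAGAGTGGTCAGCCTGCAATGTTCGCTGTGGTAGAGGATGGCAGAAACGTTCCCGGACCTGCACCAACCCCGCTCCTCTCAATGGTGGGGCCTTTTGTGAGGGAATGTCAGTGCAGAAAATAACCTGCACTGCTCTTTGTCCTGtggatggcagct
The exons were identical at 126 of 168 positions (75.0%) without a gap. In Unc5a the exon was in 11.5% and 14.8% of the TPM of complete coding transcripts in the first quantification (13.1% ± 2.30) and in 18.3% and 19.0% in the second. In Unc5d it was in 79.6% and 81.6% in the first (80.6% ± 1.40) and in 67.8% and 65.1% in the second. The ranges of the 2 genes did not overlap in any library or quantification. Dcc, whose alternative splice site adds 60 bases of coding sequence, had the longer form at 61.6% and 66.3% in the first and 57.1% and 58.4% in the second, and Sema6a had a 165-base exon at 64.4% and 60.7% in the first and 60.8% and 58.6% in the second. For Sema3f a 93-base exon was at 17.9% and 23.97% in the first but at 46.4% and 19.5% in the second, so its share depends on the quantification.

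Over all isoforms, 50 of the 70 genes reached 5 TPM in each library and had at least 2 annotated transcripts. The leading transcript was the same in both libraries and both quantifications in 37 of them (74.0%), against 67.8% of all protein-coding genes so chosen. Sema7a-201 held 100% in every estimate and Plxna4-201 at least 94.98%, the 2 members whose leading transcript held 90% or more throughout. The 13 genes without a stable leader were Epha5, Ntng1, Ntng2, Robo1, Sema3f, Sema4a, Sema4c, Sema4d, Sema6a, Sema6c, Sema6d, Slit1 and Slit2. In Epha5, for example, no transcript held more than 21.5% in any estimate. For these genes the leading transcript depended on the library or the quantification.

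Replicates were compared by the log2 ratio of expected counts, replicate 2 over replicate 1, after TMM scaling, with a 95% exact counting interval, for the 64 guidance genes whose counts averaged at least 100. A gene is called higher or lower in replicate 2 where that interval leaves out 0, which covers counting error only and says nothing of animals. Ratios ran between -0.90 and 0.37 with a median of -0.01, where the median over all 11646 protein-coding genes so chosen was 0.05. Higher were 7 genes (10.9%; 28.4% of all genes) and lower 15 (23.4%; 14.2% of all genes), and 42 were neither. The split turns on the scaling and on what is counted: spike-in scaling, which moved the median of all genes by -0.13, gave 2 higher and 32 lower (7.29% and 33.9% of all genes), total-count scaling gave 5 and 22 (19.4% and 19.4% of all genes), and coding transcripts alone, an alternative chosen after seeing the data, gave 16 and 12 (35.8% and 9.95% of all genes). Under each of these the median of the guidance genes lay below that of all genes, by 0.07 with TMM scaling.

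**Figure D3:**
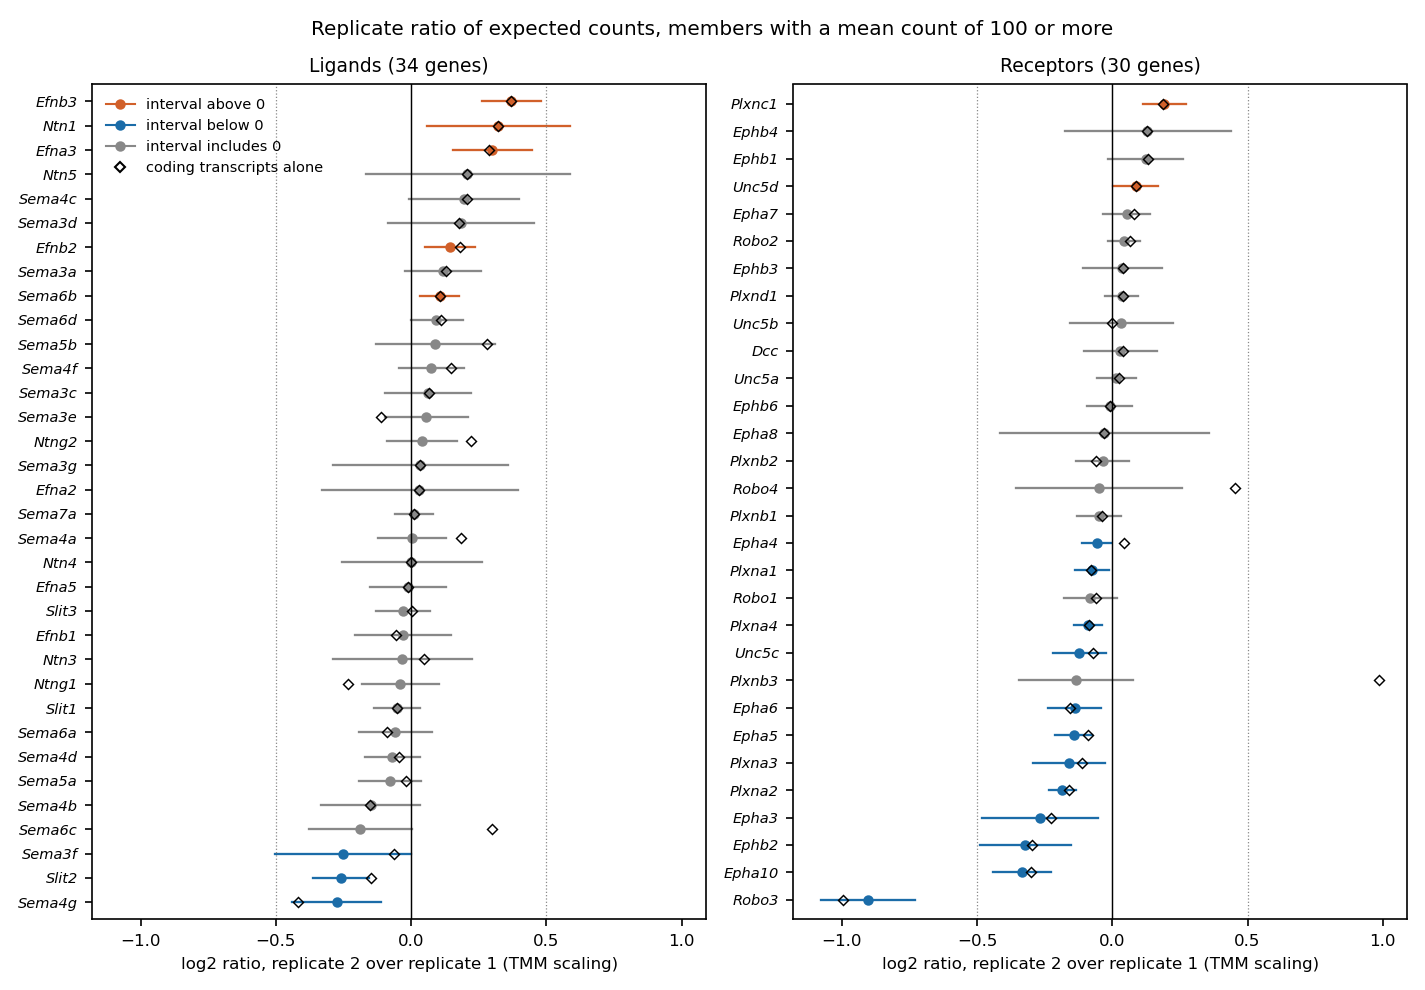
Log2 ratio of replicate 2 over replicate 1 after TMM scaling for the 34 ligands and 30 receptors whose counts averaged at least 100, in order of the ratio; lines are 95% exact counting intervals, orange above 0, blue below 0, grey including 0, open diamonds the ratio from coding transcripts alone, and dotted lines mark 0.5 in each direction. Robo3 alone lies beyond a dotted line by its whole-gene ratio, and the diamond of Plxnb3 lies far from its circle.

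Most guidance genes differed little between the libraries, since 63 of the 64 lay within 0.5 on this log2 scale. Robo3 was the exception. It had 685 and 465 counts, and it was lower in replicate 2 with a log2 ratio of -0.90 (-1.08 to -0.73), where 1.18% of all genes were lower by over 0.5. The second quantification gave -0.93 and coding transcripts alone -0.997. Coding transcripts made up 43.8% and 45.0% of Robo3 TPM, and introns were retained in much of the rest, Robo3-206 having 3.07 and 1.43 TPM. Robo4 lies 0.553 kb away on the opposite strand, and its whole-gene ratio was -0.05 (-0.35 to 0.26). Its coding transcripts alone gave 0.45 (0.09 to 0.81). Its other transcripts gave -1.92 (-2.71 to -1.15), with 59.4 and 19.6 counts. By whole gene and by coding transcripts the neighbours thus did not share the difference. No gene was higher by over 0.5, where 1.17% of all genes were.

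Of the 7 higher genes 5 were ligands, out of 34 tested, a smaller share than the 28.4% of all genes: Efnb3 by 0.37 (0.26 to 0.48), Ntn1 by 0.32 (0.06 to 0.59), Efna3 by 0.30 (0.16 to 0.45), Efnb2 by 0.14 (0.05 to 0.24) and Sema6b by 0.11 (0.03 to 0.18). The other two were Plxnc1, by 0.19 (0.11 to 0.27), and Unc5d, by 0.09 with an interval that began at 0.00. Ephrins had 3 higher and 0 lower of 6. With spike-in scaling Efnb3, with 1099 and 1802 counts, and Efna3, with 642 and 1003, kept their call. The other 5 lost it: Ntn1 was at 0.20 (-0.07 to 0.46), Plxnc1 at 0.07 (-0.01 to 0.15) and Efnb2 at 0.02, and Sema6b and Unc5d changed sign. Of the 15 lower genes 12 were receptors, out of 30 tested, beside the 14.2% of all genes that were lower, and these were mostly Eph receptors and A plexins. Eph receptors had 6 lower and 0 higher of 12, among them Epha10 at -0.33 (-0.44 to -0.23), with 1384 and 1394 counts, Ephb2 at -0.32 (-0.49 to -0.15), Epha3 at -0.27 (-0.48 to -0.05), Epha5 at -0.14 (-0.21 to -0.07) and Epha6 at -0.14 (-0.24 to -0.04). Epha4, lower at -0.06, turned to 0.04 with coding transcripts alone. All 4 A plexins were lower, Plxna2 at -0.18 (-0.23 to -0.14) with 6322 and 7060 counts, Plxna3 at -0.16, Plxna4 at -0.09 and Plxna1 at -0.07. Unc5c was lower at -0.12 (-0.22 to -0.02). The 3 lower ligands were Sema4g at -0.28, Slit2 at -0.26 and Sema3f at -0.25. With coding transcripts alone 3 more of the 15 lost their call, Plxna3 at -0.11 (-0.25 to 0.03), Unc5c at -0.07 (-0.18 to 0.04) and Sema3f at -0.07 (-0.37 to 0.26). By that measure Slit2 was at -0.15, Epha5 at -0.09 and Sema4g at -0.42, all still lower. In the second quantification 6 of the 7 and all 15 kept their call, Unc5d being the exception, and none was called the opposite way. The families were named after their ratios were seen, and no test stands behind the grouping.

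Among partners outside the list, 5 of the 13 co-receptors and binding partners tested were higher and 2 lower, beside 28.4% and 14.2% of all genes. Flrt3, a ligand of Unc5 receptors, was higher by 0.45 (0.31 to 0.60) and Nrp2 by 0.30 (0.19 to 0.42), while Met was lower at -0.37 (-0.63 to -0.11) and Dscam at -0.17. Semaphorin and plexin effectors had 1 higher and 6 lower of 15, Slit and Robo effectors 1 and 5 of 9, ephrin and Eph effectors 3 and 5 of 15, and netrin and Dcc effectors 5 and 3 of 10. The medians of the 5 lists lay between -0.10 and 0.09, with members called in both directions in each.

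How much of a gene's TPM came from coding transcripts also differed between the libraries for some genes. Over the 51 guidance genes that reached 5 TPM in each library the median coding share of TPM was 85.9% and 87.6%, and over all 10135 genes so chosen it was 86.8% and 90.4%. The share was higher in replicate 2 in both quantifications in 26 of the 51 (51.0%), against 48.2% of all genes. Plxnb3, a plexin known from oligodendrocytes that lay under this minimum, had the widest gap of the 64 genes compared above: 36.9% and 78.7% in the first quantification and 35.6% and 80.4% in the second. Its whole-gene ratio was -0.13, with 351 and 406 counts, but its coding transcripts alone gave 0.99 (0.69 to 1.29). The gap rests on Plxnb3-204, a transcript with a retained intron, at 1.84 and 0 TPM with intervals of 0.894 to 2.68 and 3.69e-05 to 0.513 TPM that did not overlap. The coding Plxnb3-201 had 1.49 and 2.69 TPM, and its intervals, 0.461 to 2.09 and 1.95 to 2.87 TPM, overlapped slightly. Oligodendrocyte markers were higher in replicate 2 as given above, and their part in this value was not tested.

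Some guidance genes also contain short features of the annotation class TEC, whose status awaits experiment, inside the gene and on its strand. With a mean count of 20 or more there were 11 such features in Efnb2, Unc5d, Robo2, Sema4b and Plxna2. All 11 were lower in replicate 2, with log2 ratios between -1.54 and -0.76 and a median of -1.17, while their host genes lay between -0.18 and 0.14. Svet1, a transcript inside Unc5d known as a marker of cells that go on to form upper layers, had 115 and 50 counts and a ratio of -1.54 (-2.05 to -1.05), where Unc5d itself had 2100 and 2829 counts. Gm38036 in Plxna2 had 125 and 63 counts and E230020D15Rik in Efnb2 had 133 and 80. The class as a whole was low in replicate 2 as well: over all 927 TEC features counted in the same way the median was -0.93 and 72.1% were lower.

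**Figure D4:**
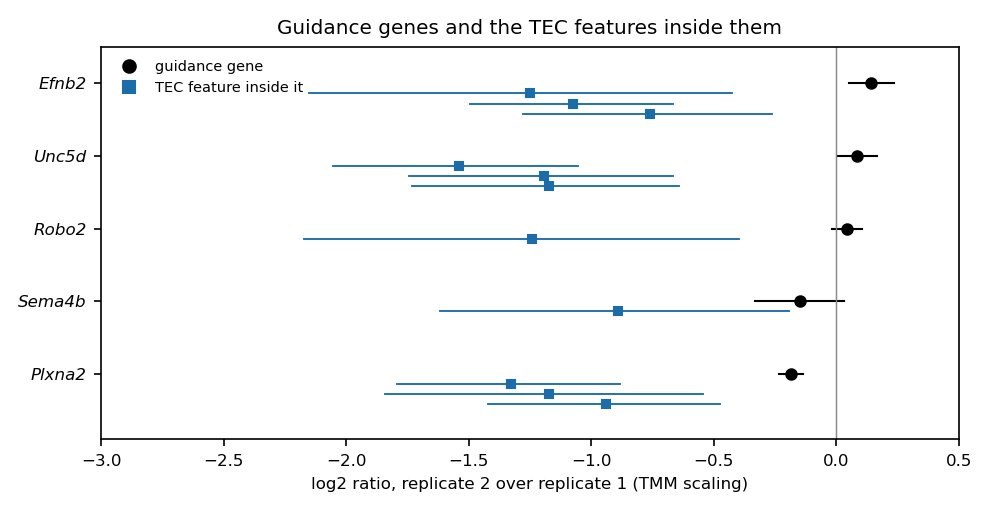
Log2 ratio of replicate 2 over replicate 1 after TMM scaling for 5 guidance genes (black circles) and for the 11 TEC features inside them on the same strand (blue squares), with 95% exact counting intervals. The features lie between -1.54 and -0.76 and the genes between -0.18 and 0.14.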

How the data were processed

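The authors deposited 3 tables per library: a gene and a transcript table with the columns of RSEM and a second transcript table with the columns of kallisto, on mm10 and GENCODE M21 per the deposited file lists. Per the file headers, their units are expected counts (in the second table, estimated counts), TPM, the percent of a gene's TPM in each transcript, and the bounds of a credibility interval of TPM, handled here as a score because no source used here gives their level. How strand was handled, the aligner and the tool versions were not given in the sources used here. Deposited values divide reads among transcripts, so overlapping genes and similar copies share reads. CAST alleles were read against the reference genome, an effect not measured here.

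Scaling used TMM (edgeR 4.0.16, R 4.3.3) on expected counts rounded to whole numbers, with factors of 1.02 and 0.984, and subtracted 0.34 on the log2 scale. Ratios used 0.5 added to each count. Intervals are exact (Clopper-Pearson), at 95%, and cover counting error only, since reads carry no molecular identifiers. They were run on simulated Poisson counts without errors in dividing reads among transcripts, so that check does not bear on such errors. Neighbouring levels are called apart where the deposited intervals lay clear of each other, with the same gene above, in each library, which held for 26 of 57 neighbours. A block could be named where forms with and without it each held 5% or more of the gene's TPM in every estimate. Blocks of Sema6d, Epha7 and Ephb2 that met this rule were left out, because several of their forms lack a longer stretch around the block. The Unc5d exon and the 24-base exon of Slit2 were added outside the rule. Alternatives were DESeq2 1.42.0 size factors, total-count and spike-in scaling, TPM ratios, other minimums, the second quantification and coding transcripts alone. Every member could be named; ratios were named past 0.5, and the further calls were then listed. Members and lists were chosen with earlier results of these data known.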

Additional observations from a re-analysis of the deposited data

How the results depend on the processing

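Detection of 66 genes varied between 64 and 67 over the TPM minimums, the second quantification and rescaling, and was 66 without either replicate. With the second quantification the leading gene was the same in 6 of 9 families: by the mean of both libraries Plxna2 led Plxnd1 (log2 ratio of Plxnd1 over Plxna2 -0.11), Ephb6 led Epha4 (-0.020 for Epha4 over Ephb6) and Slit3 led Slit1, the first 2 pairs having the other order in replicate 2; without one or the other replicate it was the same in 7 to 9, Efnb3 and Ntn5 leading in replicate 2. The 37 stable leading isoforms became 46 of 61 at a TPM of 2, 26 of 37 at 10, 44 of 50 in the RSEM-layout tables alone, and 43 to 45 without one replicate. Genes higher in replicate 2 numbered 2 under spike-in scaling and 16 with coding transcripts alone, against 7 as reported, and lower ones 32 under spike-in scaling against 15. The ratio of deposited TPM moved the median of the members to -0.16, with -0.09 for all genes. Of the 22 called genes, 17 kept their call under spike-in scaling, where Unc5d (-0.039) and Sema6b (-0.020) changed sign, and 18 with coding transcripts alone, where Epha4 (0.044) did; the cause was not tested. DESeq2 size factors and the count minimums kept all 22, the second quantification 21 and total-count scaling 20. A ratio needs both libraries, so none was left out there. No paired analysis was possible because there is 1 group. Depth limits Epha1, Efna4 and Unc5cl, whose counts were 4 or fewer in each library.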
